A study of Homo sapiens with 12 samples.

Results

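The genes described here carry out glycerol phosphate and fructose metabolism. GPD1, GPD1L, GPD2 and GK act on glycerol and glycerol 3-phosphate, and KHK, TKFC and SORD act in fructose metabolism. PGP is a phosphatase of phosphoglycolate and of glycerol 3-phosphate. The list held 8 genes. The probe annotation gave 6 of them a probe set with a single symbol, out of 18404 genes so named, while GK and SORD were not analysed here. By the rule, the probe set of a gene was chosen by the highest mean log2 value over the 12 arrays, but each of the 6 genes had 1 such probe set, so no measured value decided which was used. The list itself was drawn up with earlier results of these data known, the falls of GPD1 and TKFC in the microsystem among them, so the adjusted p-values below describe these genes and are not independent evidence.

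RNA came from HepG2C3A, a clone of the human hepatoma line HepG2 that serves as a hepatocyte model. Cells spent 96 h, per the series' design text, on Petri dishes or inside a microsystem that the labels do not describe further, and received either acetaminophen, an analgesic that the liver clears by conjugation and oxidation, for 72 h or no compound. With 3 arrays each, the groups were Petri control, Petri treated (with acetaminophen), microsystem control and microsystem treated. All 4 groups are the same cell line, and the labels used here state no dose. The label of Petri treated 3 carries an asterisk that is not explained there. They do not say either whether each replicate was its own culture. The p-values therefore cover only the spread among these arrays, which may be technical.

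In hepatocytes, the cytosolic dehydrogenase GPD1 reduces dihydroxyacetone phosphate, an intermediate of glycolysis, to glycerol 3-phosphate and spends NADH in doing so. The mitochondrial enzyme GPD2 oxidises glycerol 3-phosphate back and hands the electrons to the respiratory chain, and the pair forms a shuttle for reducing equivalents. Glycerol 3-phosphate is also the backbone of triglycerides and phospholipids. Fructose enters metabolism when ketohexokinase (KHK) phosphorylates it, aldolase splits the product, and the triokinase TKFC phosphorylates the glyceraldehyde that is released. PGP removes the phosphate of phosphoglycolate and of glycerol 3-phosphate, and GPD1L is a close relative of GPD1 encoded by another gene.

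Values are log2 intensities, so a difference of 1 is a 2-fold change. A gene was tested when it lay above the 40th percentile of the probe sets on 3 or more arrays, which GPD1, GPD1L, KHK, TKFC and PGP did on all 12 arrays and GPD2 did on 0. Differences come from limma fitted to all 12 arrays and 13199 genes, with Benjamini-Hochberg adjusted p-values over those genes and a threshold of 0.05, and a gene is said to have risen or fallen only when it passed. The array medians lay between 5.56 and 5.63, pairs of arrays within a group correlated across probe sets with r from 0.991 to 0.995, and 0 pairs of arrays were identical. All 13 hepatocyte markers that the annotation named passed the filter. Of 6 endothelial markers LYVE1 alone passed. Of 6 leukocyte markers CD68, CD14 and LYZ passed and PTPRC, CD163 and CD3E did not. In the microsystem CD68 fell by 1.05 ± 0.09 and CD14 by 0.43 ± 0.11 while LYZ rose by 0.33 ± 0.09 (untreated cells; limma, adjusted p = 2.01e-06, 0.00757 and 0.00686), each with the same direction and call in treated cells. The summed level of the endothelial markers was between 6.69 and 6.91 on the Petri arrays and between 7.26 and 8.61 on the microsystem arrays, a shift carried by LYVE1 (2.67 higher in microsystem controls than in Petri controls), while PECAM1, VWF and CDH5 did not pass. That of the leukocyte markers ranged from 12.3 to 12.4 on the Petri arrays and from 12.4 to 12.7 on the microsystem arrays. LYZ makes up most of it, at a mean log2 value of 12.3 (CD68 8.75, CD14 5.57). The sum of 8 fibroblast and stellate cell markers ranged from 7.87 to 8.13 on all arrays, and that of hepatocyte markers from 15.5 to 15.9. Of the 13 hepatocyte markers 2 rose and 5 fell with culture in untreated cells, against 26.5% and 18.3% of all genes tested. The part of these lists in the culture differences below was not tested.

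RefSeq windows of 250 bases before the transcription start (build GRCh38.p14) were at hand for 5 of the 8 genes. Those of TKFC, GPD1L and PGP, the tested genes among them, are printed. With treatment TKFC fell in both cultures, GPD1L rose in Petri dishes, and PGP passed in neither culture. With culture in untreated cells each of these genes rose (by 0.51, 0.84 and 0.55). The windows are read 5′ to 3′ on the strand of the gene, with every CCAAT box (CCAAT or its reverse complement) and every GC box (GGGCGG or its reverse complement) in capitals.
TKFC, chr11:61332978-61333227, plus strand: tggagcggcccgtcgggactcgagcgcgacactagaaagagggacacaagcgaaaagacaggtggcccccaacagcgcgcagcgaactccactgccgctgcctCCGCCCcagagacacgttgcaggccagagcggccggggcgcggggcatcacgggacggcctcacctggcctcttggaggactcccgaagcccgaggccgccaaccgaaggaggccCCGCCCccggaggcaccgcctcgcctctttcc
GPD1L, chr3:32106370-32106619, plus strand: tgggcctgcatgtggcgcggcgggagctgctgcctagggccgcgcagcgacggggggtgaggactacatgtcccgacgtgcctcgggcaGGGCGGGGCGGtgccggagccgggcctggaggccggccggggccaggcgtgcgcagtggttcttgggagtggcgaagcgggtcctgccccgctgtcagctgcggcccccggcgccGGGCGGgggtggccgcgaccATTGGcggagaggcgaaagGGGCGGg
PGP, chr16:2214841-2215090, minus strand: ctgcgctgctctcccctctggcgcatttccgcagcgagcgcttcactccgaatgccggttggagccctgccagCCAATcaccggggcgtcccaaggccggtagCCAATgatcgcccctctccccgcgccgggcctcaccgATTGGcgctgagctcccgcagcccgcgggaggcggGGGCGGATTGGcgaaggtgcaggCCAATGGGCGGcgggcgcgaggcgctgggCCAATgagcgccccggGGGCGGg
The windows are rich in G and C, at 70.8% for TKFC, 77.6% for GPD1L and 73.6% for PGP. The PGP window held 6 CCAAT boxes, a number reached by 37 of all 35116 RefSeq windows of this length (0.105%), while GPD1L held 1 and TKFC 0, and 32% of all windows held at least 1. GC boxes numbered 2 in TKFC, 4 in GPD1L and 3 in PGP. As many or more were held by 24.3%, 7.63% and 13.9% of all windows, and 42.6% held at least 1. Neither box was on the list of motifs drawn up with the design: both were added after the sequences were seen. The 4 motifs of that list were searched on both strands, and none of the 6 windows (GPD2 has 2, and GK was included) held one. They were CACGTG, the E-box core bound by carbohydrate-response factors (in 6.34% of all windows), AGGTCA, the half-site of nuclear receptors (12.1%), its extended form AAGGTCA, which contains the shorter one (3.44%), and TATAAA, the TATA box (10.7%). These matches describe letters in the windows and say nothing about binding.

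GPD1, which makes glycerol 3-phosphate from dihydroxyacetone phosphate, was highest in untreated microsystem cells and lower wherever acetaminophen had been added. These are bulk samples, in which fewer cells with the transcript and less of it per cell cannot be told apart. Its log2 values were 6.43, 6.73 and 6.36 in Petri controls, 5.86, 6.24 and 5.93 in treated Petri cells, 7.02, 7.73 and 7.78 in microsystem controls and 6.54, 6.40 and 6.49 in treated microsystem cells. The treated arrays lay entirely below the controls of the same culture, and the order of the means was Petri treated, microsystem treated, Petri control and microsystem control. The middle 2 groups overlapped, with means of 6.48 ± 0.07 and 6.50 ± 0.20 (SD, n = 3). In the microsystem GPD1 fell by 1.03 ± 0.17 (SE), a 2.04-fold decrease (limma, adjusted p = 0.00371). In Petri dishes the difference was -0.49 ± 0.17 and did not pass (limma, adjusted p = 0.0903). With the replicate number as a block within each culture this difference passed (limma, adjusted p = 0.0374), as it did without microsystem control 1 (adjusted p = 0.0149). Whether same-numbered arrays were paired is not known.

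Culture moved GPD1 upward. Between untreated cells it rose 2.01-fold in the microsystem, with an SE of 0.17 on the log2 scale (limma, adjusted p = 0.000421), and the 3 microsystem values lay above the 3 Petri values. Between treated cells it rose by 0.47 ± 0.17 (adjusted p = 0.0456), again without overlap. That second call was narrow: 11 of 23 alternatives lost it, among them quantile normalization (0.42, adjusted p = 0.0681), array medians set equal (0.46, 0.0513), no filter (0.0564), leaving out both microsystem arrays numbered 3 (0.0682), and the fit without Petri treated 1 (0.39, 0.138), Petri treated 3 (0.43, 0.123), microsystem treated 1 (0.44, 0.114), 2 (0.51, 0.0692) or 3 (0.46, 0.0888), or Petri control 1 (0.0534) or 3 (0.0517).

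**Figure D1:**
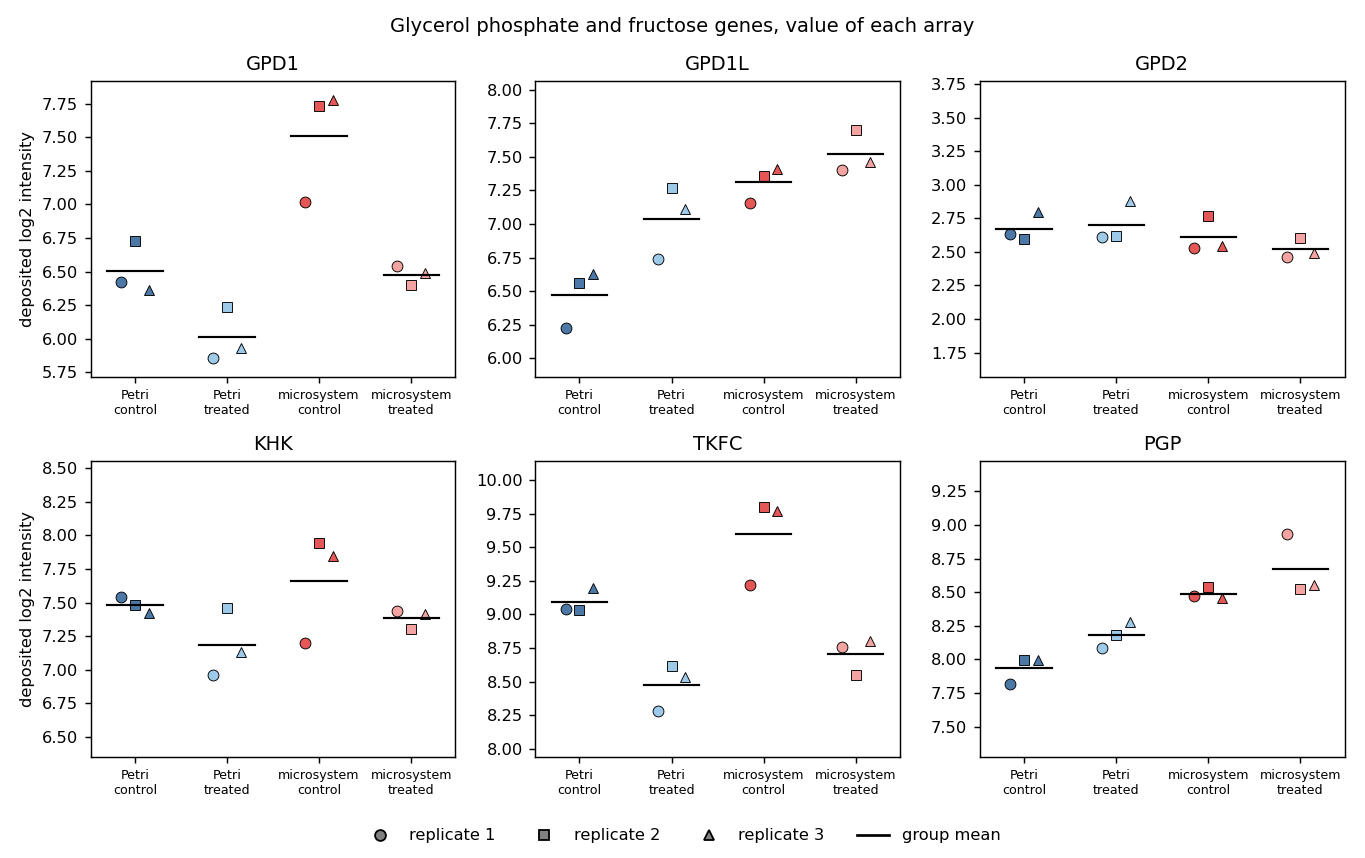
Deposited log2 intensity of each array for the 6 genes with a probe set, by group; symbols give the replicate number, bars the group mean, and every panel spans 2.2 log2 units. GPD1 and TKFC are highest in microsystem controls, GPD1L and PGP step upward from Petri control to microsystem treated, and GPD2 stays between 2.46 and 2.88.

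TKFC, the triokinase that phosphorylates glyceraldehyde in fructose breakdown, followed the same group order as GPD1. It measured 9.04, 9.03 and 9.19 in Petri controls, 8.28, 8.62 and 8.54 in treated Petri cells, 9.22, 9.80 and 9.77 in microsystem controls and 8.76, 8.55 and 8.80 in treated microsystem cells. Treated arrays lay below the controls of their culture without overlap, and the 2 treated groups, which are neighbours in the order, overlapped. TKFC fell by 0.61 ± 0.14 in Petri dishes (1.53-fold; limma, adjusted p = 0.0162) and by 0.89 ± 0.14 in the microsystem (1.86-fold; limma, adjusted p = 0.00277). The Petri call was lost without Petri control 3 (-0.56, adjusted p = 0.0658) or Petri treated 1 (-0.51, 0.0586), while the microsystem call held under all 24 alternatives run, with differences between -1.08 and -0.79. Untreated cells had more TKFC in the microsystem, by 0.51 ± 0.14 (adjusted p = 0.0113), a call lost without microsystem control 2 (0.40, adjusted p = 0.0578). Between treated cells the culture difference was 0.23 ± 0.14 with overlapping values (adjusted p = 0.229).

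KHK, the kinase that commits fructose to metabolism, had the same order of group means but passed in 0 of the 5 comparisons, and its unadjusted p was 0.0965 or higher in each. The values were 7.54, 7.48 and 7.42 in Petri controls, 6.96, 7.46 and 7.13 in treated Petri cells, 7.20, 7.94 and 7.85 in microsystem controls and 7.44, 7.30 and 7.42 in treated microsystem cells. Microsystem control 1 stood below the other microsystem controls in KHK as in GPD1 and TKFC, and the groups overlapped in the treatment and culture comparisons alike. Treatment differences were -0.30 ± 0.17 in Petri dishes and -0.28 ± 0.17 in the microsystem (limma, adjusted p = 0.278 and 0.312). Without microsystem control 1, the treatment difference in the microsystem was -0.51 (adjusted p = 0.0221) and the culture difference in controls 0.42 (adjusted p = 0.0164), against 0.18 with it (adjusted p = 0.396). Whether KHK passed in these comparisons thus turned on this array, while its other comparisons passed under no alternative run.

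GPD1 and its relative GPD1L did not both pass under treatment in either culture. GPD1L had a higher mean in treated than in control arrays of each culture, the reverse of GPD1. Its values were 6.23, 6.56 and 6.63 in Petri controls, 6.74, 7.27 and 7.12 in treated Petri cells, 7.16, 7.36 and 7.41 in microsystem controls and 7.40, 7.70 and 7.46 in treated microsystem cells. The means climbed in that order, from 6.47 ± 0.21 to 7.52 ± 0.16 (SD, n = 3), and each group after the Petri controls overlapped the next. GPD1L rose by 0.57 ± 0.14 with treatment in Petri dishes (1.49-fold; limma, adjusted p = 0.0218), without overlap, whereas in the microsystem the difference was 0.21 ± 0.14 with overlap (adjusted p = 0.369). The Petri call was lost without Petri control 1 (0.45, adjusted p = 0.0782), Petri treated 2 (0.46, 0.106) or Petri treated 3 (0.53, 0.0848). With culture GPD1L rose in untreated cells by 0.84 ± 0.14 (1.79-fold, adjusted p = 0.000351) and in treated cells by 0.48 ± 0.14 (adjusted p = 0.0151), both without overlap. The call in treated cells was lost without microsystem treated 2 (0.39, adjusted p = 0.0703) or Petri treated 1 (0.33, adjusted p = 0.0715).

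PGP, the phosphoglycolate phosphatase, differed mainly with culture. It measured 7.81, 7.99 and 7.99 in Petri controls, 8.09, 8.18 and 8.28 in treated Petri cells, 8.47, 8.54 and 8.46 in microsystem controls and 8.94, 8.53 and 8.55 in treated microsystem cells. All 6 microsystem values lay above all 6 Petri values, and within the microsystem the groups overlapped, with microsystem treated 1 the highest of the 12. PGP rose with culture by 0.55 ± 0.11 in untreated cells (1.47-fold; limma, adjusted p = 0.000939) and by 0.49 ± 0.11 in treated cells (1.40-fold; adjusted p = 0.00248), and both calls held under all 23 alternatives run. The treatment differences, 0.25 ± 0.11 in Petri dishes and 0.18 ± 0.11 in the microsystem, did not pass (adjusted p = 0.159 and 0.295), although the Petri values did not overlap.

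GPD2, the mitochondrial partner of GPD1 in the shuttle, read between 2.46 and 2.88 on the 12 arrays. It did not reach the 40th percentile of any array, so a signal over background was not shown, and the gene was not tested. Its group means differed by at most 0.18.

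Set side by side, the 5 tested genes gave fewer calls under treatment than under culture, as did all genes tested. Shares over all genes were 10.4% (Petri dishes) and 9.06% (microsystem) for treatment, and 44.9% (untreated) and 41.4% (treated cells) for culture. In Petri dishes 1 of 5 rose (GPD1L) and 1 of 5 fell (TKFC), where 8.38% of all genes tested rose and 1.98% fell. With the replicate block within each culture 3 of 5 passed there, with the fall of GPD1 added (limma, adjusted p = 0.0374). By the same block 2180 in place of 1367 of all genes passed. In the microsystem 2 of 5 fell (GPD1 and TKFC) and 0 rose, where 2.67% of all genes fell and 6.39% rose. Of all calls, 80.9% were rises in Petri dishes and 70.5% in the microsystem, shares that were 90.7% and 81.6% with array medians set equal and 67.3% and 64.3% with array weights. By unadjusted p-values 2 of the 5 genes were higher and 2 lower in Petri dishes (GPD1 and PGP added), and 0 higher and 2 lower in the microsystem. In untreated cells 4 of 5 rose with culture and 0 fell, by adjusted or unadjusted p-values, against 26.5% and 18.3% of all genes. In treated cells 3 of 5 rose and 0 fell, likewise by both, against 22.6% and 18.9%. The groups did not overlap for 4 of 5 genes under treatment in Petri dishes (34.5% of all genes), 2 of 5 in the microsystem (27.6%), 4 of 5 for culture in untreated cells (52.4%) and 3 of 5 in treated cells (52.9%). The median difference of the 5 genes was -0.30, -0.28, 0.55 and 0.47 in these 4 comparisons, and the median over all genes tested was 0.013, -0.0069, 0.012 and -0.0014. Since pairs of these comparisons share control or treated arrays, their values are given only side by side.

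**Figure D2:**
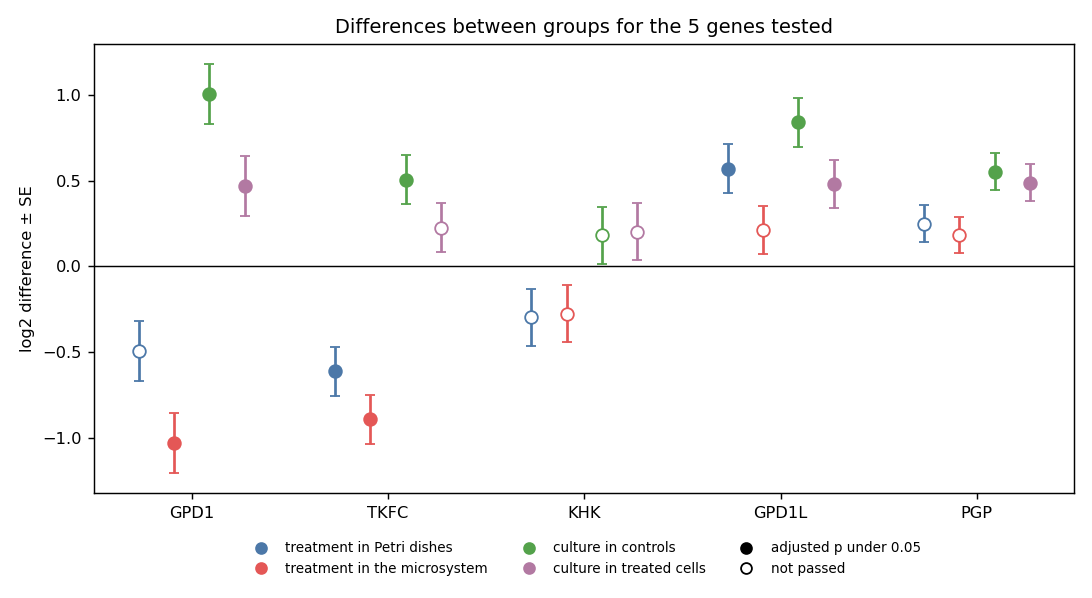
Log2 difference between groups with its standard error for the 5 genes tested, in 4 comparisons; filled points passed limma at an adjusted p under 0.05. GPD1 and TKFC lie below 0 under treatment (-1.03 and -0.89 in the microsystem), GPD1L and PGP above 0 in all 4 comparisons, and no KHK point is filled.

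Whether treatment acted differently in the 2 cultures was tested as a difference of differences, microsystem minus Petri. None of the 5 genes passed limma, and 1, GPD1, would have without adjustment. Its value was -0.54 ± 0.25 (limma, adjusted p = 0.672). The values were -0.36 ± 0.20 for GPD1L, -0.28 ± 0.20 for TKFC, -0.06 ± 0.15 for PGP and 0.02 ± 0.24 for KHK, with adjusted p from 0.751 to 0.992. Over all genes, 0.00758% passed upward and 0.0227% downward. The call for GPD1L in Petri dishes and not in the microsystem, and the reverse for GPD1, are therefore not shown to differ between cultures.

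The likeness between genes was measured as the root mean square difference of log2 values over the 12 arrays, after each gene was centred on its own mean. GPD1 and TKFC were 0.24 apart, and of all other tested genes outside the list 3 were nearer to GPD1 and 6 nearer to TKFC. The pair GPD1L and PGP was 0.23 apart, but 247 genes were nearer to GPD1L. GPD1 and its relative GPD1L were 0.61 apart, with TKFC and GPD1L the farthest pair of the 10, also at 0.61. The arrays of 1 group share culture and treatment, so these distances mostly describe group means.

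The genes nearest to GPD1 were GPHA2, a glycoprotein hormone subunit gene (0.19), BCAT1, the cytosolic branched-chain aminotransferase gene (0.20), and CPN2, a carboxypeptidase N subunit gene (0.23). Between treated and control arrays of the microsystem GPHA2 differed by -0.75 ± 0.21, BCAT1 by -0.70 ± 0.20 and CPN2 by -0.51 ± 0.15. Nearest to TKFC were the calmodulin-like gene CALML4 (0.21), the aromatic amino acid decarboxylase gene DDC (0.22) and again GPHA2 (0.22). Nearest to GPD1L were NAXE (0.12), an epimerase gene that repairs damaged NADH, the fatty acid desaturase gene FADS1 (0.13) and MAP7D2 (0.14). Between treated and control Petri arrays these last 3 differed by 0.45 ± 0.10, 0.49 ± 0.09 and 0.50 ± 0.13. All these genes were picked for their likeness, so the differences are a description and carry no test.

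**Figure D3:**
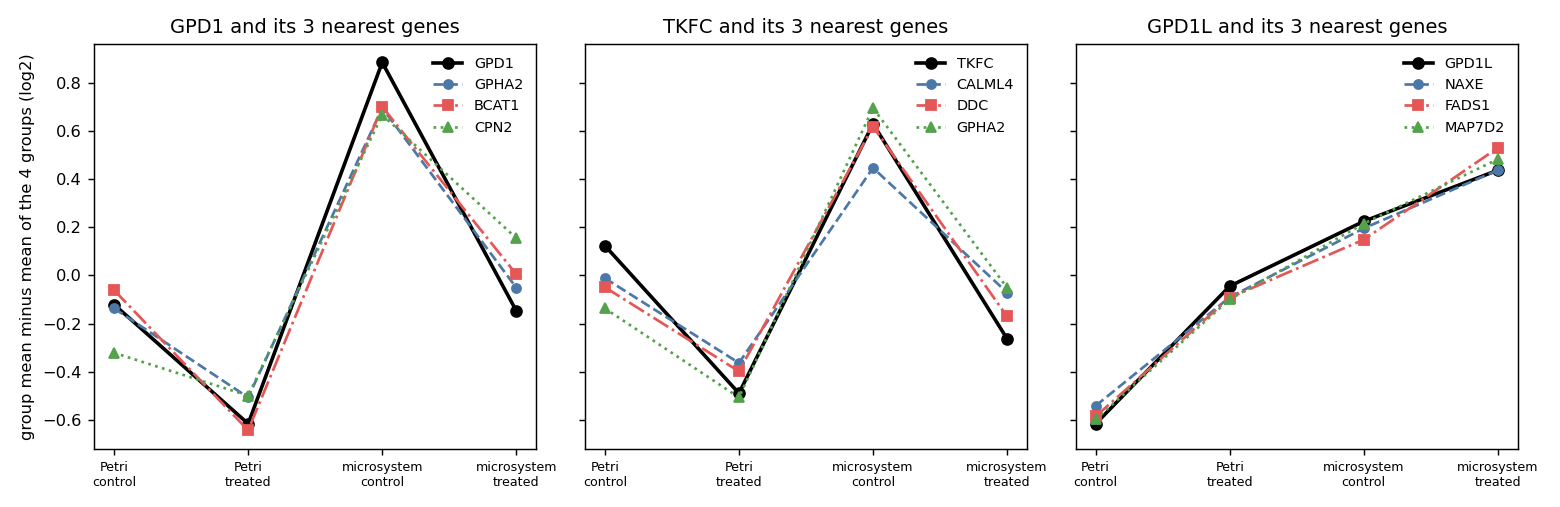
Mean of each group minus the mean of the 4 groups (log2) for GPD1, TKFC and GPD1L (black) and the 3 genes nearest to each over the 12 arrays. The curves of GPD1 and TKFC peak in microsystem controls, while that of GPD1L climbs from Petri control to microsystem treated, a span of 1.05.

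By position, TKFC and KHK each overlap a neighbouring gene in RefSeq. TKFC overlaps CYB561A3, a gene of the cytochrome b561 family on the opposite strand, and the pair was looked at after the values were seen. CYB561A3 measured 7.18, 7.38 and 7.40 in Petri controls, 7.70, 7.90 and 7.94 in treated Petri cells, 8.20, 8.06 and 8.06 in microsystem controls and 8.75, 8.80 and 8.75 in treated microsystem cells. The 4 groups did not overlap, and each step was upward. CYB561A3 rose with treatment by 0.52 ± 0.09 in Petri dishes and by 0.66 ± 0.09 in the microsystem (limma, adjusted p = 0.00247 and 0.000908), the 2 comparisons in which TKFC fell, and both calls held under all 24 alternatives. With culture it rose by 0.78 ± 0.09 in untreated cells (adjusted p = 1.47e-05), where TKFC rose too. Positions of the probes were not used here, so whether either probe set reads the shared stretch was not tested.

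**Figure D4:**
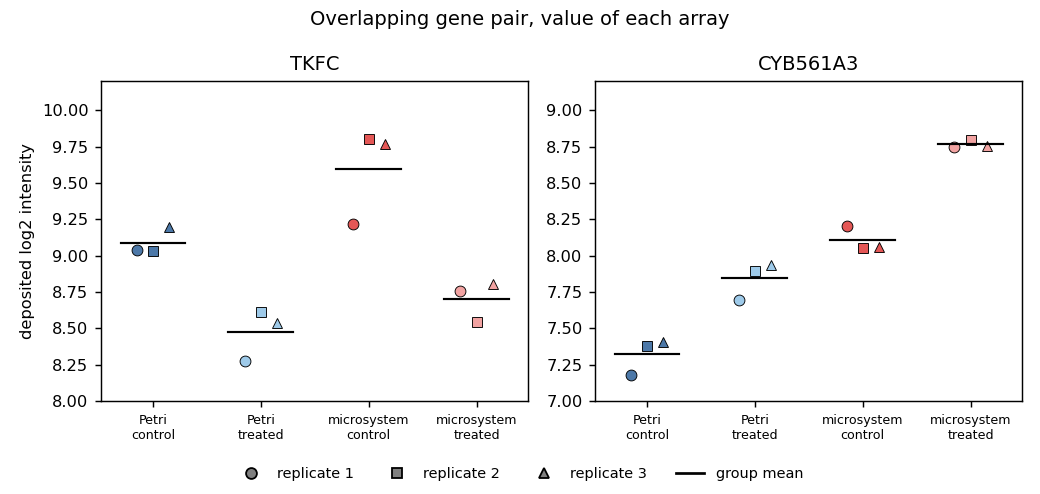
Deposited log2 intensity of each array for TKFC and for CYB561A3, which overlaps it, by group; symbols give the replicate number, bars the group mean, and both panels span 2.2 log2 units. Treated arrays lie below the controls of their culture for TKFC and above them for CYB561A3.

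KHK overlaps CGREF1, a gene for a secreted growth regulator. CGREF1 fell with treatment in the microsystem by 0.36 ± 0.08 and rose with culture in untreated cells by 0.34 ± 0.08 (limma, adjusted p = 0.0186 and 0.00507). The first call was lost without microsystem control 3 (-0.33, adjusted p = 0.0571), microsystem treated 1 (-0.35, 0.052), microsystem treated 2 (-0.36, 0.0643) or both microsystem arrays numbered 3 (-0.35, 0.0835), and with only the arrays compared (0.0536). SMARCD1, next to GPD1, differed by -0.15 ± 0.08 with treatment in the microsystem, where GPD1 fell, and did not pass (adjusted p = 0.276). SMARCD1 and COX14, on the other side of GPD1, rose with culture in untreated cells, by 0.29 ± 0.08 and 0.32 ± 0.09 (adjusted p = 0.0118 and 0.00844), the former not without microsystem control 2 (0.22, 0.0594) or Petri control 2 (0.26, 0.0501). ZNF860, the zinc finger gene before GPD1L, rose with treatment in Petri dishes by 0.65 ± 0.16 (adjusted p = 0.0201), but not without Petri control 2 (0.49, 0.0905) or Petri treated 3 (0.58, 0.0872). It also rose in the microsystem, where GPD1L did not pass, by 0.58 ± 0.16 (adjusted p = 0.0377), a call lost in 8 of 23 alternatives: without microsystem control 2 or 3, any microsystem treated array, Petri treated 2 or both microsystem arrays numbered 3 (0.44 to 0.61, adjusted p from 0.0506 to 0.181), and with only the arrays compared (0.0792). CMTM8, on the other side of GPD1L, differed by -0.08 ± 0.14 in Petri dishes and -0.09 ± 0.14 in the microsystem and passed in neither (adjusted p = 0.759 and 0.702).

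Of the tested genes on either side of glycerol 3-phosphate, 4.55% passed under treatment in each culture. Of all genes tested, 10.4% passed in Petri dishes and 9.06% in the microsystem. Of 22 tested genes for glycerol channels, acyltransferases, phosphatidate phosphatases and lipases, 1 rose, 0 fell and 21 did not pass in either culture, with medians of 0.04 in Petri dishes and 0.11 in the microsystem (by unadjusted p-values 4 were higher and 2 lower in each). With the replicate block within each culture 3 passed in Petri dishes and 2 in the microsystem. The widest difference in the list was that of the glycerol channel gene AQP3, singled out after its values were seen: 1.03 ± 0.32 in Petri dishes, without overlap, and 0.82 ± 0.32 in the microsystem, with overlap (adjusted p = 0.0602 and 0.128). AQP3 passed in Petri dishes with that block (adjusted p = 0.035), with only the arrays compared, with array medians set equal, with array weights, and without microsystem control 1 or 2, microsystem treated 3 or both microsystem arrays numbered 3 (adjusted p from 0.000445 to 0.0422). In the microsystem it passed without microsystem control 1 (1.27, adjusted p = 0.00709). The gene that rose was GPAT4, an acyltransferase that adds the first fatty acid to glycerol 3-phosphate, by 0.29 ± 0.08 and 0.28 ± 0.08 (limma, adjusted p = 0.0283 and 0.0392). The Petri call was lost without any 1 of the 6 Petri arrays (0.27 to 0.31, adjusted p from 0.0527 to 0.103) and with quantile normalization. That in the microsystem was lost in 11 of 24 alternatives, among them the fits without replicate 2 or 3 of any group (0.24 to 0.28, adjusted p from 0.0508 to 0.143). With culture 7 rose and 2 fell in untreated cells (40.9% of the list, against 44.9% of all genes tested), and 10 rose and 3 fell in treated cells (59.1% against 41.4%). GPAM, the mitochondrial acyltransferase of the same step, rose by 1.87 ± 0.20 and 2.23 ± 0.20 (3.66-fold and 4.69-fold, adjusted p = 7.77e-06 and 2.18e-06), from a mean of 7.76 in Petri controls to 9.63 in microsystem controls. TPI1, which interconverts the triose phosphates, fell in untreated cells by 0.28 ± 0.09 (adjusted p = 0.0149), but with the mean of its probe sets the difference was 0.08 (adjusted p = 0.626), and without Petri control 3 it was -0.22 (0.0723). LPIN2, a phosphatidate phosphatase gene, fell in treated cells by 0.47 ± 0.17 (adjusted p = 0.0372), and was lost without Petri treated 1 (-0.34, adjusted p = 0.146), microsystem treated 1 (-0.49, 0.0683), microsystem treated 3 (-0.35, 0.142) or both microsystem arrays numbered 3 (0.0775).

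Of 20 tested fructose, polyol and hexose phosphate genes, 1 rose and 1 fell with treatment in Petri dishes, and 1 rose and 2 fell in the microsystem. The passing genes were 10% and 15% of the list, against 10.4% and 9.06% of all genes tested. With the replicate block within each culture 4 passed in Petri dishes and 6 in the microsystem. In Petri dishes DCXR, a reductase of xylulose, rose by 0.33 ± 0.08 (limma, adjusted p = 0.0218) and GCKR, the inhibitor of glucokinase that fructose phosphates regulate, fell by 0.51 ± 0.14 (adjusted p = 0.037). DCXR lost the call without Petri control 1, Petri control 2, Petri treated 2 or Petri treated 3 (0.30 to 0.32, adjusted p from 0.0581 to 0.0913), and GCKR without any 1 of the 6 Petri arrays or microsystem treated 1 (-0.59 to -0.40, adjusted p from 0.0508 to 0.12). In the microsystem the hexose transporter gene SLC2A8 rose by 0.52 ± 0.10 (adjusted p = 0.00753) under every alternative run. The hexokinase gene HK2 fell by 0.60 ± 0.17 (adjusted p = 0.0392) with overlapping groups, and lost the call with only the arrays compared (0.114) or without microsystem control 2 or 3, microsystem treated 1 or 2, Petri control 2, or Petri treated 2 or 3 (-0.61 to -0.47, adjusted p from 0.0517 to 0.149). Between untreated cultures 6 of these genes rose and 8 fell, or 70% against 44.9% of all genes, with a median of -0.13. AKR1B10, an aldo-keto reductase with close relatives that may share its probes, rose 43.4-fold, from 5.60 ± 0.25 in Petri controls to 11.04 ± 0.49 in microsystem controls (SD, n = 3; adjusted p = 1.72e-08). HK2 fell by 2.55 ± 0.17, or 5.85-fold (adjusted p = 2.26e-07). In treated cells 7 rose and 9 fell (80% against 41.4%), with AKR1B10 at 4.73 ± 0.25 and HK2 at -3.15 ± 0.17 (adjusted p = 3.76e-08 and 4.47e-08).

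The malate-aspartate shuttle and its relatives carry NADH equivalents alongside the glycerol phosphate shuttle. Of 9 tested genes, 0 passed limma under treatment in either culture (10.4% and 9.06% of all genes did), at medians of 0.09 and -0.06. By unadjusted p-values 3 were higher in Petri dishes, and 1 was higher and 1 lower in the microsystem. With the replicate block within each culture 2 passed in Petri dishes and 1 in the microsystem. The Petri count was 0 to 2 with single arrays left out (1 without microsystem control 3 or Petri control 3, and 2 without Petri treated 1), and 0 to 3 over the other alternatives. Between untreated cultures 4 rose and 2 fell (66.7% against 44.9% of all genes), led by the dicarboxylate carrier gene SLC25A10 (0.81 ± 0.11; limma, adjusted p = 4.59e-05) and the aspartate-glutamate carrier gene SLC25A12 (-0.59 ± 0.21, adjusted p = 0.0387). SLC25A12 lost the call without any 1 of the Petri controls or microsystem control 1 or 2 (-0.64 to -0.43, adjusted p from 0.0554 to 0.163). Between treated cultures 3 rose and 1 fell (44.4% against 41.4%), the riser with the largest difference being again SLC25A10 (0.55 ± 0.11) and the one that fell the aspartate aminotransferase gene GOT1 (-0.57 ± 0.09, adjusted p = 0.000183).

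Of 18 tested genes for transcription regulators of sugar and lipid metabolism, 0 rose (1 was higher by unadjusted p-values) and 1 fell with treatment in Petri dishes. In the microsystem 1 rose and 3 fell. The passing genes were 5.56% and 22.2% of the list, against 10.4% and 9.06% of all genes tested. With single arrays left out the microsystem count was 2 to 4. Over the other alternatives it was 1 to 5, with 1 reached without both microsystem arrays numbered 3. The nuclear receptor gene HNF4G fell with treatment in both cultures, by 0.45 ± 0.07 and 0.64 ± 0.07 (limma, adjusted p = 0.00219 and 0.000355). The glucocorticoid receptor gene NR3C1 rose in the microsystem by 0.54 ± 0.10 (adjusted p = 0.0067, and 0.0504 without both microsystem arrays numbered 3). With culture 2 rose and 5 fell in untreated cells (38.9% against 44.9% of all genes), and 3 rose and 6 fell in treated cells (50% against 41.4%). MLXIPL, which encodes the carbohydrate-response factor ChREBP, rose by 0.96 ± 0.13 and 1.11 ± 0.13 (adjusted p = 5.78e-05 and 2.13e-05), while NR3C1 fell by 1.55 ± 0.10 and 1.09 ± 0.10 (adjusted p = 2.37e-07 and 3.64e-06).

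**Figure D5:**
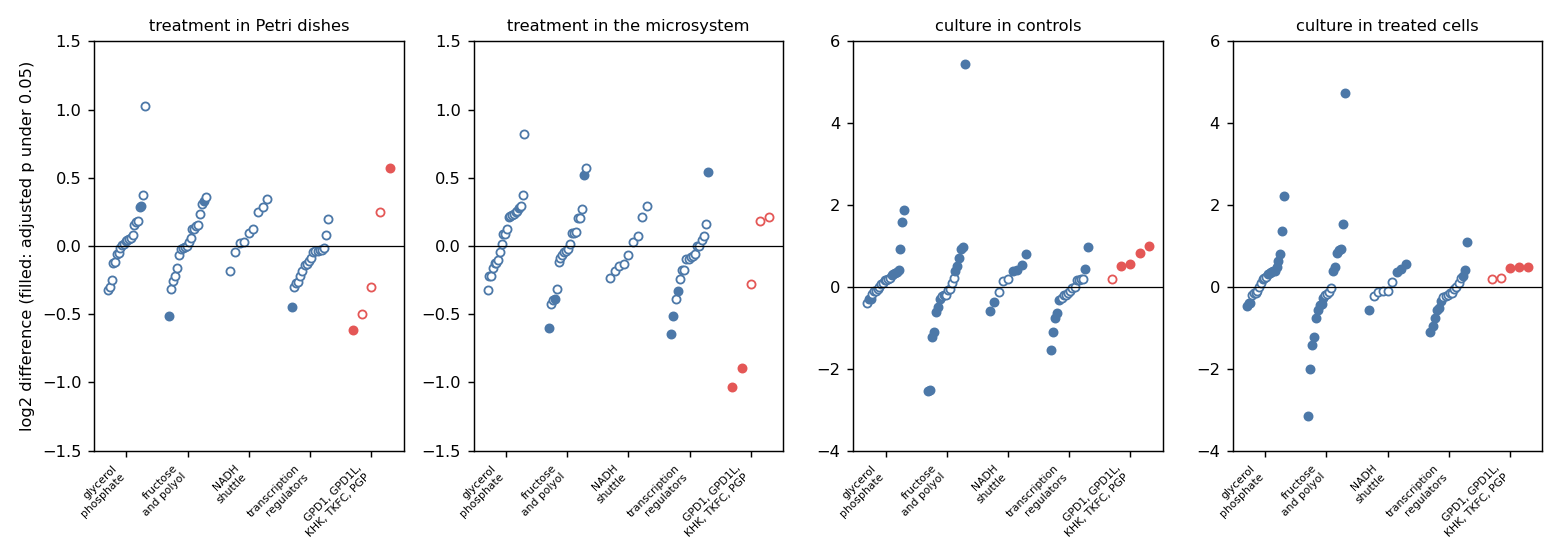
Log2 difference of each tested gene in the 4 neighbouring gene lists (blue) and of GPD1, GPD1L, KHK, TKFC and PGP (red) in 4 comparisons; filled points passed at an adjusted p under 0.05, and the culture panels span a wider axis than the treatment panels. Under treatment 0% to 22.2% of the genes of a list are filled, where 10.4% and 9.06% of all genes tested passed. AKR1B10 stands at 5.44 and 4.73 in the culture panels.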

How the data were processed

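RNA of 12 samples was read on Affymetrix arrays. The deposited log2 intensities were normalized by the authors; the submitters' processing notes name RMA (robust multi-array average) and Expression Console, with no version or genome build. They covered 32321 probe sets, of which 19158 had 1 gene symbol, 1388 several and 11775 none here; symbols were updated through Entrez IDs. They were used without new normalization. limma 3.58.1 (R 4.3.3) fitted 1 coefficient per group to 13199 genes after 5205 dim genes were removed, with 8 residual and 5.35 prior degrees of freedom; SE values are moderated, and tests are two-sided. An exact permutation test of 3 arrays against 3 cannot go below p = 0.1. The procedure was tested on simulated data for treatment in the microsystem only. The simulated noise was independent between genes and arrays, so deviations that arrays share were not covered.

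The genes, lists and alternatives were chosen with earlier results of these data known. Named are all genes of the list, the largest rise and fall past the threshold in each neighbouring list and comparison, and the 3 genes nearest to each of the 3 genes with the widest range of group means; overlapping and adjacent genes were added later. To see whether replicate numbers pair arrays, deviations from group means were correlated across genes for same-numbered arrays. Between control and treated arrays r was 0.48, 0.19 and 0.31 in Petri dishes and 0.11, 0.07 and 0.60 in the microsystem. Between cultures it ranged from -0.14 to 0.18. Arrays with unlike numbers were not correlated for reference, so these values do not settle whether arrays were paired. The main fits used no pairing. Alternatives were 2 replicate blocks, only the arrays compared, quantile normalization, equal medians, no filter, a 60th percentile filter, means of probe sets, single probe sets, an intensity trend, array weights, and leaving out arrays. A planned alignment of GPD1 and GPD1L proteins was not run. Motifs were searched in Python 3.11.15, and figures drawn with matplotlib 3.10.9.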

Additional observations from a re-analysis of the deposited data

How the results depend on the processing

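Array weights gave 5, 5, 3 and 3 genes past the threshold in the glycerol phosphate, fructose, shuttle and regulator lists under Petri treatment, against 1, 2, 0 and 1. The microsystem falls of GPD1 and TKFC, and the culture rises of GPD1 and GPD1L in untreated cells and of PGP in both comparisons, kept their direction and call under all alternatives run. Over the 5 tested genes and all alternatives, 553 values kept direction and side of the threshold, 19 lost a call, 6 gained one and 7 changed sign. The sign changes were those of uncalled differences of treatment effects: KHK at -0.15 with array weights and from -0.21 to 0.16 when single arrays were left out, and PGP from -0.20 to 0.0072. GPD1 in Petri dishes also passed with only the arrays compared (adjusted p = 0.0348) and with array weights (0.00863). Among neighbouring genes TPI1 turned to 0.083 with the mean of its probe sets. The cause of these changes was not tested.

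With single arrays left out, 1 to 3 members passed for treatment in Petri dishes and 1 to 3 for culture in treated cells. The number of genes that passed ranged from 701 to 1520 (1367 with all arrays) for treatment in Petri dishes, from 460 to 1440 (1196) in the microsystem and from 1 to 13 (4) for the difference of treatment effects. With the replicate block within each culture 2180, 2109 and 24 genes passed in these 3 comparisons, and the replicate block over all arrays gave 18 for the difference. That block changed no call of a member. Array weights gave 3602 genes in Petri dishes and 54 for the difference, only the arrays compared 446 in the microsystem, quantile normalization 7 and an intensity trend 10 for the difference, and leaving out both microsystem arrays numbered 3 gave 677 in the microsystem and 11 for the difference. A block within cultures gives no culture comparison. Precision is limited by having 3 arrays in a group.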
